A study of Rattus norvegicus with 6 samples.

Results

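Open-sea CG regions within genes and promoters are stretches of DNA in which the methylation of CG sites differed between stressed and unstressed rats, and which lie far from any CpG island but inside or next to a gene. They were taken from the authors' annotated list of differentially methylated regions (DMRs). A region was a member when its context was CG, when it was annotated to the open sea and to neither a CpG island nor an island shore, and when it also carried at least 1 gene annotation among promoter, exon, intron, 5′ UTR, 3′ UTR, transcription start site (TSS) and transcription end site (TES). The rule was met by 1049 of 5849 annotated CG regions (17.9%), and the list as a whole held 24862 annotated regions in the CG, CHG and CHH contexts. An open-sea interval begins beyond the shelf, 4 kb from an island, and 2 members also touched a shelf. The members were assigned to 934 genes. A symbol was given for 942 members, and the other 107 carried an Ensembl identifier only.

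DNA came from brain microvascular endothelial cells (BMECs) of the hippocampus, sorted as CD45-/CD31+ cells from male Sprague-Dawley rats, which were 6 weeks old when obtained per the study's methods. The CUMS group (3 samples) had been exposed to 8 weeks of chronic unpredictable mild stress, and the Ctrl group (3 samples) had not. The labels name no other treatment for either group. CD31 marks endothelium and CD45 marks leukocytes, so the sort defines the cells, but methylation regions alone give no expression value with which the sorted cell type could be checked. For each region the tables held 1 methylation level for CUMS and 1 for Ctrl, each headed as a group mean, and no read number. No level therefore carries a replicate error, and its depth at the region is unknown. The study's methods give a range of sequencing coverage over the samples, but none per region. The authors called the regions with the software DSS under a p-value limit, and the tables held no p-values. No difference could therefore be compared here with the spread between rats or tested again. Every region was listed because it differed, so the values below describe the listed regions. Intervals beside a share are 95% exact binomial (Clopper-Pearson) intervals over regions. They cover counting error over regions only.

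CpG islands are short, CG-rich stretches that overlie many promoters and are mostly kept free of methylation. Shores and shelves are their flanks, and the open sea is the remaining, CG-poor genome, where most CG sites are methylated. In gene bodies, methylation is common in transcribed genes, while short stretches of low methylation in introns are known from enhancers. The members were examined by level, by gene feature, by repeat and by gene.

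Among members, 653 were hypermethylated (higher in CUMS) and 396 were hypomethylated (lower in CUMS). The hypomethylated share was 37.8% (34.8% to 40.8%), and the hypermethylated share was 62.2%. Over all CG regions the shares were 20% lower and 80.0% higher. Hypomethylated regions were thus a larger part of the members than of the CG list as a whole. Of the members, 991 differed by 10 percentage points or more, which is the minimum in the study's methods (94.5% of members), compared with 76.1% of all CG regions. At least 20 percentage points were reached by 544 members (51.9%), compared with 31.5% of all CG regions. The smallest difference of a member was 5.23 percentage points and the largest was 70.0, and 147 members reached 30 and 29 reached 40 percentage points.

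Members of the 2 directions had different median levels in Ctrl. Hypermethylated members had a median level of 47.3% in Ctrl and 72.8% in CUMS, and their median difference was 20.4 percentage points, with the middle 50% of members between 16.3 and 25.2. Hypomethylated members had a median level of 80.1% in Ctrl and 55.3% in CUMS, and their median difference was -19.8 percentage points, with the middle 50% between -25.9 and -14.8. The size of the difference was thus alike in both directions, whereas the Ctrl levels lay far apart. Splitting listed regions by the sign of their difference itself parts the Ctrl levels, and the CUMS levels lay in the reverse order. The gap in Ctrl is therefore partly fixed by the split. To see whether the direction followed the level itself, members were sorted by the mean of both groups, a split chosen after the values were seen. The hypomethylated share was 43.8% of 80 members with a mean level up to 20%, 26.0% of 169 members between 20% and 40%, 33.3% of 231 between 40% and 60%, 36.1% of 379 between 60% and 80%, and 54.2% of 190 above 80%. It was therefore not a steady function of the level. All 106 members with a Ctrl level over 90% were lower in CUMS and all 49 with a Ctrl level under 10% were higher, which the limits of the scale largely fix.

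**Figure D1:**
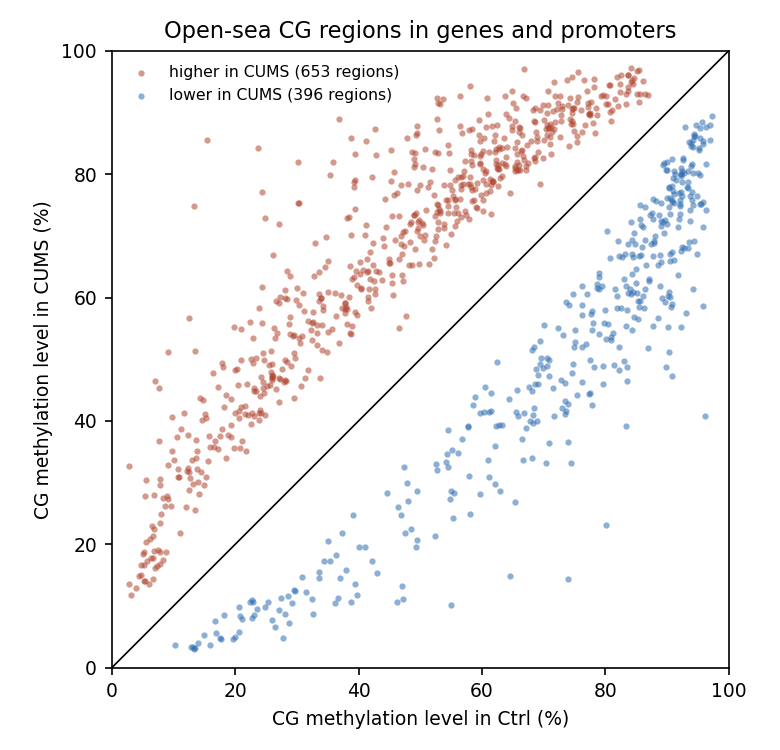
Methylation level of each member in Ctrl (x axis, %) and in CUMS (y axis, %), 1 point per region, with the line of equal levels. The 653 points above the line (higher in CUMS) spread over Ctrl levels from near 0 to below 90%, whereas the 396 points below it gather at high Ctrl levels, around a median of 80.1%. The split by direction partly fixes this placing.

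The members were short. Their median length was 86 bp (51 to 512 bp) and they held a median of 10 CG cytosines (4 to 67), both strands counted. The median density was 11.25 cytosines per 100 bp. Density itself bore little relation to direction. Among 4 groups of members of increasing density, a split chosen after the values were seen, the hypomethylated share was 42.2%, 37.5%, 32.7% and 38.5%. The size of the difference did vary with density, and its median was 24.5 percentage points in the sparsest group and 17.1 in the densest. The sparsest group held a median of 5 cytosines per region and the densest 16. The part of this number, and of the listing itself, in the size was not tested. In 3 members (in Pxn, Mtmr3 and Mapk14) the table gives more cytosines than the CG sites that a single strand of that length could hold, so the numbers cover both strands. An odd number was given for 67.8% of members, so a CG site was not always counted on both strands.

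Next, the members were set beside the 2 classes most like them. The 1477 open-sea CG regions between genes resembled the members in direction and level. Of these intergenic regions, 42.2% (39.6% to 44.7%) were lower in CUMS, with a median Ctrl level of 55.1% for the higher and 83.8% for the lower regions. Their median density was 10.7 cytosines per 100 bp. The 2934 CG regions of genes and promoters that lie in an island or shore differed from the members in each of these values. Only 3.10% (2.504% to 3.79%) were lower in CUMS, the median level was 6.34% in Ctrl and 17.9% in CUMS, and the median density was 25.8 cytosines per 100 bp. Members and island regions thus both lie in genes but start at different levels, and the median size of the difference was 20.3 percentage points in members and 11.6 in island regions. Repeats were annotated in 44.6% of members, 72.8% of intergenic open-sea regions and 1.77% of island regions. These are counts of regions from the same libraries, and the differences between the classes could not be tested over samples.

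**Figure D2:**
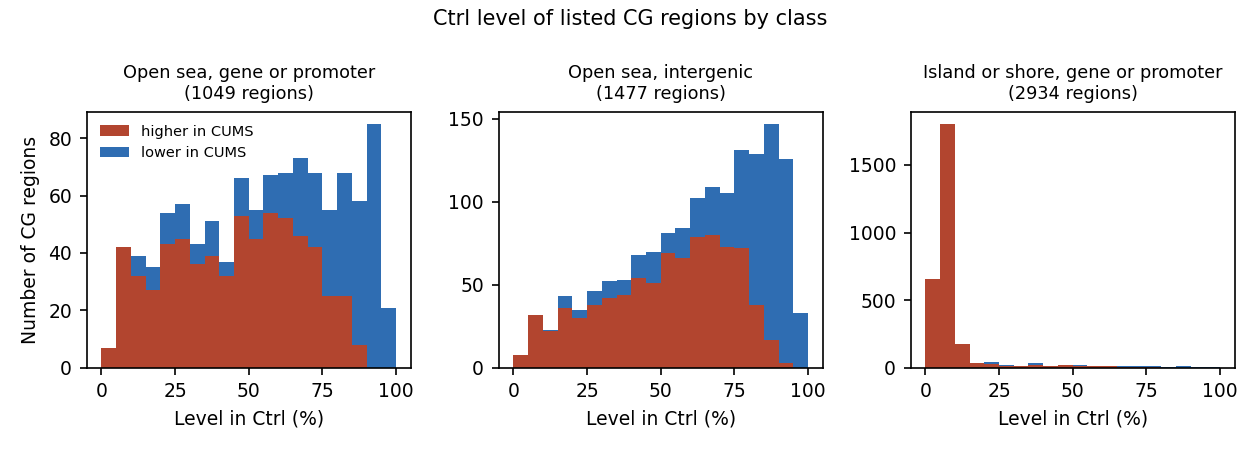
Number of listed CG regions (y axis, own scale in each panel) by their methylation level in Ctrl (x axis, %, bins of 5%), stacked by direction, for members (left), open-sea regions between genes (middle) and island or shore regions of genes (right). Both open-sea classes span the whole range with the hypomethylated regions to the right, which the split by direction partly fixes. In contrast, the island regions pile up below 15% and nearly all are higher in CUMS.

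The direction of members varied with the gene feature. Exonic members, which overlap an exon, a UTR, a TSS or a TES, numbered 163, of which 27 were hypomethylated (16.6%, 11.2% to 23.2%). In contrast, 350 of the 824 members that lay in introns only were hypomethylated (42.5%, 39.1% to 45.9%). The 84 promoter members stood between them with 23 hypomethylated (27.4%, 18.2% to 38.2%). Within the exonic members, 4 of 29 in the 5′ UTR (13.8%) and 5 of 26 in the 3′ UTR (19.2%) were hypomethylated. Hypermethylated members of the 5′ UTR had a low median level of 12.6% in Ctrl and 28.0% in CUMS, while those of the 3′ UTR had 48.1% and 69.3%. The gap between exonic and intronic members remained when members in repeats were set aside, with 25 of 146 exonic members (17.1%) and 149 of 401 intron-only members (37.2%) hypomethylated. Exonic members also began at a lower median Ctrl level (41.0%) than intron-only members (61.0%), and the part of the level in the difference was not tested.

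Transposable elements are kept methylated in most cells, which holds down their transcription, and the members were therefore examined by annotated repeat. A repeat was annotated in 468 members, of which 214 were hypomethylated (45.7%, 41.1% to 50.4%), compared with 182 of 581 members without a repeat (31.3%, 27.6% to 35.3%). Members in LINE/L1 elements, autonomous retrotransposons without long terminal repeats, were hypomethylated in 89 of 201 cases (44.3%). LTR/ERVK elements, remnants of endogenous retroviruses, were the only class with at least 10 members in which hypomethylated members were the majority, with 67 of 103 (65.0%, 55.02% to 74.2%). The majority rested on introns, since of the 16 ERVK members in promoters or exonic features 6 were hypomethylated (37.5%, 15.2% to 64.6%). The median level of the 67 was 79.6% in Ctrl and 55.8% in CUMS. Repeat members outside the ERVK class were hypomethylated in 40.3% of 365 cases. Among short interspersed elements, 10 of 30 SINE/B4 members (33.3%), 4 of 14 SINE/Alu members (28.6%) and 5 of 12 SINE/B2 members (41.7%) were hypomethylated.

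Most of the hypomethylated ERVK members belonged to 2 elements, picked out after their values were seen. RLTR32_Rn was annotated in 34 members, of which 24 were hypomethylated (70.6%), and RLTR20A4 in 32, of which 24 were hypomethylated (75.0%). Together they covered 64 members, 46 of them hypomethylated (71.9%, 59.2% to 82.4%), with a median level of 83.5% in Ctrl and 57.0% in CUMS among the hypomethylated ones. These 64 members lay on 19 chromosomes and in 64 genes, and no pair was closer than 96443 bp. ERVK members without these 2 elements were hypomethylated in 21 of 39 cases (53.8%). Among intergenic open-sea regions the ERVK share was 49.0% of 153, and that of the 2 elements was 27 of 45 (60.0%). Copies of such elements are similar in sequence, so reads from them cannot be assigned to a single copy with certainty, and these levels are less reliable than those in unique sequence.

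**Figure D3:**
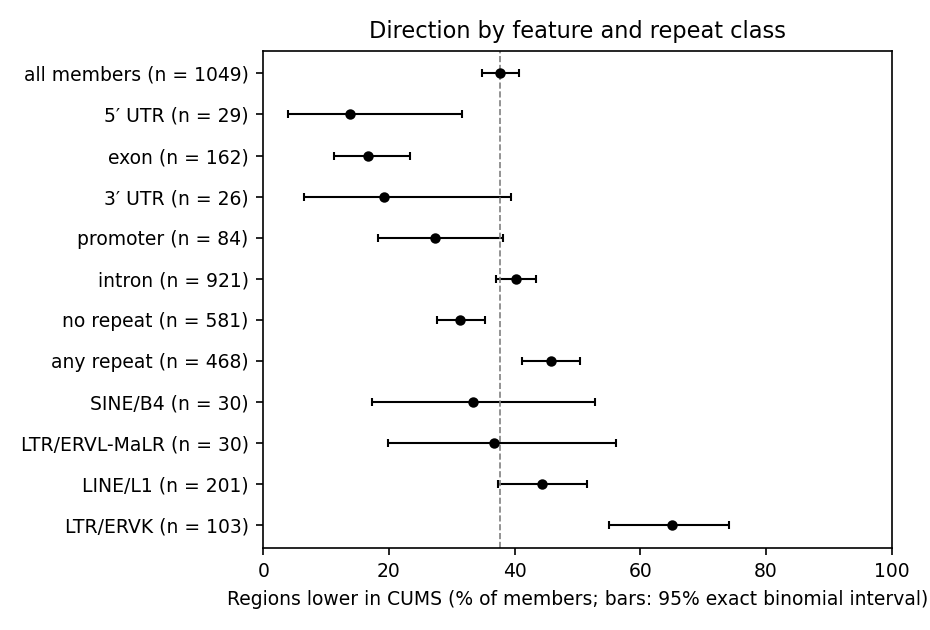
Share of members lower in CUMS (x axis, %) for all members, for 5 gene features and for 6 repeat groups, with 95% exact binomial intervals as bars and the share of all members (37.8%) as a dashed line. Exons lie left of the line with 16.7%, and LTR/ERVK elements lie farthest to the right with 65.0%.

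Promoter members were then examined individually, since methylation near a start site is the best known link to gene activity. In 9 members the annotation places a TSS inside the region, and 8 of these were higher in CUMS (88.9%). The hypermethylated share was 83.4% of exonic members and 80.0% of all CG regions. The hypomethylated share of TSS members was 11.1% (0.281% to 48.2%), so their direction is not set apart from these. Of the 8, Nsg2, which encodes a vesicle trafficking protein of neurons, had the lowest levels, with 2.73% in Ctrl and 13.5% in CUMS (chromosome 10, 15661415 to 15661539, exon and 5′ UTR). Hsd17b10, a mitochondrial dehydrogenase, had 7.79% and 16.8% (chromosome X, 21089086 to 21089157). Ociad2 had 6.61% and 23.0% (chromosome 14, 34873774 to 34873869). At Ccdc152 the level was high in both groups, with 63.0% in Ctrl and 79.4% in CUMS (chromosome 2, 52532784 to 52532873). TSS members therefore covered nearly unmethylated as well as largely methylated start sites.

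The only hypomethylated TSS member had 36.1% in Ctrl and 10.4% in CUMS over 41 cytosines (chromosome 20, 52408099 to 52408223). The annotation gives it as the start of a UBX domain-containing protein 2A-like gene with the symbol Ubxn2a, inside an intron of Grik2, a kainate-type glutamate receptor subunit. RefSeq places Ubxn2a on chromosome 6 (GRCr8), so the region may share reads with a near-identical copy and its level is uncertain.

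Over all promoter members of genes with a symbol, the 4 hypermethylated ones with the largest region score (areaStat, which adds the DSS statistic over the cytosines) were in Syt3, Olr778, Slco1a3 and Nsg2. Syt3, a synaptotagmin of vesicle fusion, had 11.2% in Ctrl and 38.7% in CUMS over 32 cytosines (chromosome 1, 94880802 to 94880899). The member of Olr778, an olfactory receptor gene, had 47.2% and 62.7% and lay in an RNLTR2d element. The member in the promoter of Slco1a3, an organic anion transporter, also lay in an intron of Slco1a4 and had 80.1% and 92.6% (chromosome 4, 175016532 to 175016715). Of the 4 hypomethylated promoter members with a symbol and the largest score, the Ubxn2a region is given above, and the other 3 lay in repeats. Prkar2b, a regulatory subunit of protein kinase A, had 74.5% in Ctrl and 47.8% in CUMS (chromosome 6, 48595819 to 48595962, also intron, RNLTR2d). Def6, a guanine nucleotide exchange factor, had 74.9% and 52.0% (chromosome 20, 6267552 to 6267648, RLTR20A4). Sftpa1, a surfactant protein, had 55.2% and 35.2% (chromosome 16, 17006904 to 17007088, B4).

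For a view of the CG content of such promoters, the 250 bases before the start site were read from RefSeq promoter sequences of GRCr8. This is another assembly than that of the regions (mRatBN7.2), and the members could not be placed within these bases. Of 57 named genes with a promoter member, 32 matched a single sequence on the same chromosome. They held a median of 9 CG sites (1 to 39), compared with 5 over all 33469 promoters and 24 over 939 genes whose promoter region lay in an island or shore. The island genes were matched more loosely, by symbol alone and with the first sequence of each gene. At most 5 CG sites were found in 28.1% of the matched promoters, 50.2% of all promoters and 7.24% of the island promoters. CG was searched as these letters, which read the same on both strands, and 92.2% of all promoters held at least 1. The promoters of 3 genes with a TSS member and of 3 genes with a high-scoring promoter member are shown because they span this range, with each CG in capitals and 5′ to 3′ along the gene.
Ccdc152 (GRCr8, chr2:54258110-54258359, minus strand): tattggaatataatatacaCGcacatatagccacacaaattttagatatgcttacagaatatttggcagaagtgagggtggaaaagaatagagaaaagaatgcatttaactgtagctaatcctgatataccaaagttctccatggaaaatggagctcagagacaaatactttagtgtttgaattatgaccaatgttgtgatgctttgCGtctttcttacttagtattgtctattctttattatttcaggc
Def6 (GRCr8, chr20:6270073-6270322, plus strand): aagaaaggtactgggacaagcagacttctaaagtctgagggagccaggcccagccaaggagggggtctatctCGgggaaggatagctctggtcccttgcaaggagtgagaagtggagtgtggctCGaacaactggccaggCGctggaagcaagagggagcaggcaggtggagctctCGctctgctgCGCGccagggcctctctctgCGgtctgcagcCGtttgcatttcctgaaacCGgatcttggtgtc
Hsd17b10 (GRCr8, chrX:24568301-24568550, plus strand): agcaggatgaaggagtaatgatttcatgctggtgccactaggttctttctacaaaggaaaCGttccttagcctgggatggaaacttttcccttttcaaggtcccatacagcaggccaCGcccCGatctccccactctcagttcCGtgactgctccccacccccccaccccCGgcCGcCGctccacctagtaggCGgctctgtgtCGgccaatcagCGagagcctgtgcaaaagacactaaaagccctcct
Nsg2 (GRCr8, chr10:16165916-16166165, minus strand): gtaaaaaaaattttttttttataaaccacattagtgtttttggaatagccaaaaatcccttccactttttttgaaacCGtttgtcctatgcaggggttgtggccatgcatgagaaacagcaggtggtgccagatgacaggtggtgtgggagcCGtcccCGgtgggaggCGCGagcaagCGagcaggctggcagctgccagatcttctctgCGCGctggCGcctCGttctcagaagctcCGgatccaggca
Syt3 (GRCr8, chr1:104017874-104018123, plus strand): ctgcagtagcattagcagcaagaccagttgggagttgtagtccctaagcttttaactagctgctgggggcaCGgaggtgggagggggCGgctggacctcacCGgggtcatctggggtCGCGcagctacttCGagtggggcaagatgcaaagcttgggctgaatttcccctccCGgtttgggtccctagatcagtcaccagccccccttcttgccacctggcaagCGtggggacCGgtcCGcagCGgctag
Prkar2b (GRCr8, chr6:54381412-54381661, minus strand): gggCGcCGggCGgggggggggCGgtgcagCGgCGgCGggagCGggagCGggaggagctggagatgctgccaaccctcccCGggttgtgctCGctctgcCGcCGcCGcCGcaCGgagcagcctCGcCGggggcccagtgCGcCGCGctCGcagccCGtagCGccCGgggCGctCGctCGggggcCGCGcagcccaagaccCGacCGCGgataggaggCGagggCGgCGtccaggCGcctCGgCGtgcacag
The Ccdc152 promoter holds 2 CG sites, Def6 holds 9, Hsd17b10 holds 10, Nsg2 and Syt3 hold 11 each, and Prkar2b holds 39. Nsg2 and Hsd17b10 have more CG sites in this window than Ccdc152, but the window does not give the CG content of the members themselves. The TSS member of Ccdc152 held 18 cytosines in 90 bp, compared with 28 in 125 bp for Nsg2 and 9 in 72 bp for Hsd17b10. Whether each window adjoins the annotated start site was not settled, so the levels of the members cannot be related to these CG numbers. The Prkar2b member, at 74.5% in Ctrl, was annotated to the open sea, and its distance from these 39 CG sites is not known.

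Turning to gene bodies, the members with the largest score were those with many cytosines, and only members with a gene symbol are ranked here. The 8 highest-scoring hypermethylated members with a symbol held 32 to 67 cytosines and differed by 13.4 to 31.5 percentage points. Tmem45al led them with 57.9% in Ctrl and 72.8% in CUMS over 67 cytosines in an intron. Usp36, a deubiquitinase of the nucleolus, followed with 74.8% and 88.1%. A region shared by an intron of Abl2, a non-receptor tyrosine kinase of the actin cytoskeleton, and an exon of Tor3a had the largest difference of the 8, with 18.0% and 49.4%. Txnrd1, the cytosolic thioredoxin reductase of redox defence, had 24.6% and 51.07% in an intron. Ggt7, a gamma-glutamyltransferase family member, had 50.3% and 72.04% across an exon and intron. Ak7, an adenylate kinase, had 11.7% and 41.3%, Aox4, an aldehyde oxidase, had 18.5% and 34.04%, and AABR07033047.1, described as similar to a SET domain-containing protein, had 23.04% and 45.4%.

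The 8 highest-scoring hypomethylated members with a symbol held 33 to 62 cytosines and differed by 12.6 to 26.7 percentage points, and 4 of them lay in a repeat. Atp8a2, a phospholipid flippase subunit, had 90.7% in Ctrl and 78.1% in CUMS, and Slc10a7 had 92.2% and 73.5% in an RLTR20A4 element. Cdk5rap1, an enzyme that modifies mitochondrial tRNA, had 65.9% and 40.9%, and Thsd7b had 90.9% and 77.3%. Mapk14, the stress-activated kinase p38 alpha, had 25.3% and 10.7% over 40 cytosines in 59 bp. The remaining 3 are the Prkar2b, Ubxn2a and Def6 regions described with the promoters.

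By size of difference, a different set stood out. The 4 hypermethylated members with a symbol, at least 5 cytosines and the largest difference all lay in repeats inside introns. Pde4d, a cAMP phosphodiesterase, had 15.5% in Ctrl and 85.5% in CUMS over 8 cytosines in an RNLTR2d element, which was the largest difference of any member. Crebl2 had 23.7% and 84.2%, Ralgapb had 24.4% and 77.2%, and Dclk3 had 38.8% and 85.9%. In the other direction, Rrm2b, a subunit of ribonucleotide reductase induced by p53, had 96.1% and 40.8% over 15 cytosines and carried RLTR32_Rn. Tspan18, a tetraspanin, had 54.9% and 10.2% over 6 cytosines without a repeat. An Exoc4 region had 74.4% and 33.2%, and Dcun1d1 had 89.9% and 48.8%. These 8 members held 6 to 19 cytosines, so each rests on fewer sites than any of the members ranked by score above. The median over all members was 10, and some of the 8 lay above it.

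Since the study addresses the blood–brain barrier, members were counted in 14 gene lists of barrier, signalling and cell type genes. Of 414 genes in the lists, 32 carried a member. The share of all annotated genes that carried a member was not computed, so the numbers of genes show neither an excess nor a lack in any list. The counts are small, so they are given beside those of all members, of which 37.8% were hypomethylated and whose median difference with sign was 15.5 percentage points.

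Junction genes seal the contacts between endothelial cells, and 3 of 30 carried 6 members, 4 hypermethylated and 2 hypomethylated. Their median difference was 13.3 percentage points. Marveld2, a protein of the contacts where 3 cells meet, carried 4 of the 6, and the annotation describes it as occludin, so which of these neighbouring junction genes is meant is not settled. Its intronic regions had 5.54% in Ctrl and 20.4% in CUMS over 36 cytosines (chromosome 2, 31737170 to 31737469), and 62.3% and 81.7% over 7. A pair 1 kb apart went the other way, with 84.2% and 60.6%, and 83.7% and 60.7%. Magi3, a scaffold protein, had 26.4% and 55.04% (chromosome 2, 191643441 to 191643580). Marveld2 thus held neighbouring intronic regions of opposite direction.

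All 3 members in endothelial identity genes were hypermethylated, out of 60 genes in the list. Plvap, the diaphragm protein of fenestrated and immature vessels that the mature barrier lacks, had 22.9% in Ctrl and 53.4% in CUMS in an intron (chromosome 16, 18186209 to 18186278, 7 cytosines). Tcf7l2, a transcription factor of Wnt signalling, had 34.1% and 51.5%, and Tspan12, a co-receptor of Norrin signalling in vessels, had 74.1% and 84.5%. Their median difference was 17.5 percentage points.

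Barrier transport genes carried 7 members in 5 of 32 genes, 5 hypermethylated and 2 hypomethylated, with a median difference of 12.5 percentage points. The member of Slc2a1, the glucose transporter GLUT1 of barrier endothelium, was hypermethylated with 26.6% in Ctrl and 59.5% in CUMS in an intron (chromosome 5, 132737563 to 132737614, 10 cytosines). Abcg2, the efflux transporter BCRP, held 2 hypomethylated intronic members, with 63.3% and 39.4% in an RNLTR2d element and 68.1% and 44.9% outside repeats (chromosome 4, 87761937 to 87762177, 19 cytosines). Slco1a4, an organic anion transporter of the barrier, held the Slco1a3 promoter region and another intronic member with 82.3% and 94.5%. Slc6a6, the taurine transporter, had 41.5% and 64.3% in an intron, and Lrp1, a lipoprotein receptor, had 68.6% and 82.2% across an exon and intron. The last 2 genes were outside the naming rule and are given to complete the list.

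The basement membrane, the sheet of laminin and collagen IV around the vessel, was represented by 9 members in 6 of 33 genes, of which 7 were hypomethylated and 2 hypermethylated. The median difference was -20.4 percentage points. Lamc1, the laminin gamma 1 chain, held 3 hypomethylated intronic members, none in a repeat. They had 28.7% in Ctrl and 7.33% in CUMS, 38.7% and 10.7%, and 55.4% and 28.4% (chromosome 13, 65414280 to 65429231 from the first to the last). Col4a2, the collagen IV alpha 2 chain, held 2 in repeats, with 95.6% and 75.2% and with 94.4% and 69.2% (chromosome 16, 78062228 to 78068333). Lama2 (91.1% and 76.8%) and Col4a6 (91.98% and 76.9%) were hypomethylated in L1 elements. Col18a1, the source of endostatin, was hypermethylated with 71.03% and 88.2%. Lama2 and Col4a6 were outside the naming rule. The other hypermethylated member, in a further gene of the list, is counted but not named here. Of the 7 hypomethylated members, 5 came from Lamc1 and Col4a2, so the count is far from 7 independent genes.

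Focal adhesion genes link the cell to this sheet, and 4 of 53 carried 5 members, 3 hypermethylated and 2 hypomethylated, with a median difference of 11.4 percentage points. Pxn, the adaptor paxillin, held 2 hypermethylated intronic members with 6.38% in Ctrl and 17.8% in CUMS and with 50.7% and 69.4%. Arhgef7, an exchange factor for Rac, had 19.3% and 43.5%. Itga8, an integrin alpha chain, was hypomethylated with 69.05% and 47.5% in an RLTR20A4 element, and so was Arhgap26 with 93.8% and 76.4%, which was outside the naming rule.

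The study also addressed calcium channels and homocysteine metabolism. Calcium channel genes carried 3 members in 3 of 48 genes, with a median difference of 17.6 percentage points. Ryr1, a calcium release channel of the endoplasmic reticulum, had 30.5% in Ctrl and 52.6% in CUMS across 308 bp of an exon (chromosome 1, 84386684 to 84386991, 35 cytosines). Cacna1i, a T-type channel, had 65.7% and 83.3% in an intron. Cacna2d4, an auxiliary subunit of voltage-gated channels, was the hypomethylated one, with 89.6% and 59.3% in an intron (chromosome 4, 152421187 to 152421246, 12 cytosines). Of 29 genes of homocysteine, methionine and folate metabolism, Mthfd1l alone carried a member, a mitochondrial folate enzyme with 76.3% and 58.8% in an intron (chromosome 1, 40527950 to 40528002, 19 cytosines). No member lay in the 21 genes of the DNA methylation machinery.

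In the stress hormone and neurotrophin list, 2 of 30 genes carried a member and both were hypermethylated in an intron, with a median difference of 24.4 percentage points. Fkbp5, a co-chaperone of the glucocorticoid receptor that is itself induced by glucocorticoids, had 39.5% in Ctrl and 64.3% in CUMS (chromosome 20, 6519365 to 6519516, 12 cytosines). Ntrk2, which encodes the BDNF receptor TrkB, had 18.2% and 42.3% (chromosome 17, 5700107 to 5700161, 10 cytosines). Neither region lay in a repeat.

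Genes that mark other brain cells were counted because sorted cells can carry other cells along. Of 30 neuron genes, 2 carried a member, Nrxn3 with 90.4% in Ctrl and 60.9% in CUMS and Grin2a with 59.3% and 78.6%. The oligodendrocyte gene Mog had 81.4% and 49.1% in its promoter (chromosome 20, 1511314 to 1511466, ID_Rn1 repeat). The microglia gene Tmem119 had 5.79% and 17.4% across its promoter and an exon (chromosome 12, 42828573 to 42828720, 19 cytosines). Abcc9, a gene of mural cells, had 93.4% and 78.7% in an intron. Each of these 3 lists held 12 genes and 1 member, and the astrocyte list held 12 genes and 0 members. The levels of 2 groups do not measure the share of cells of each type, and the part of cell makeup in any difference was not tested.

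**Figure D4:**
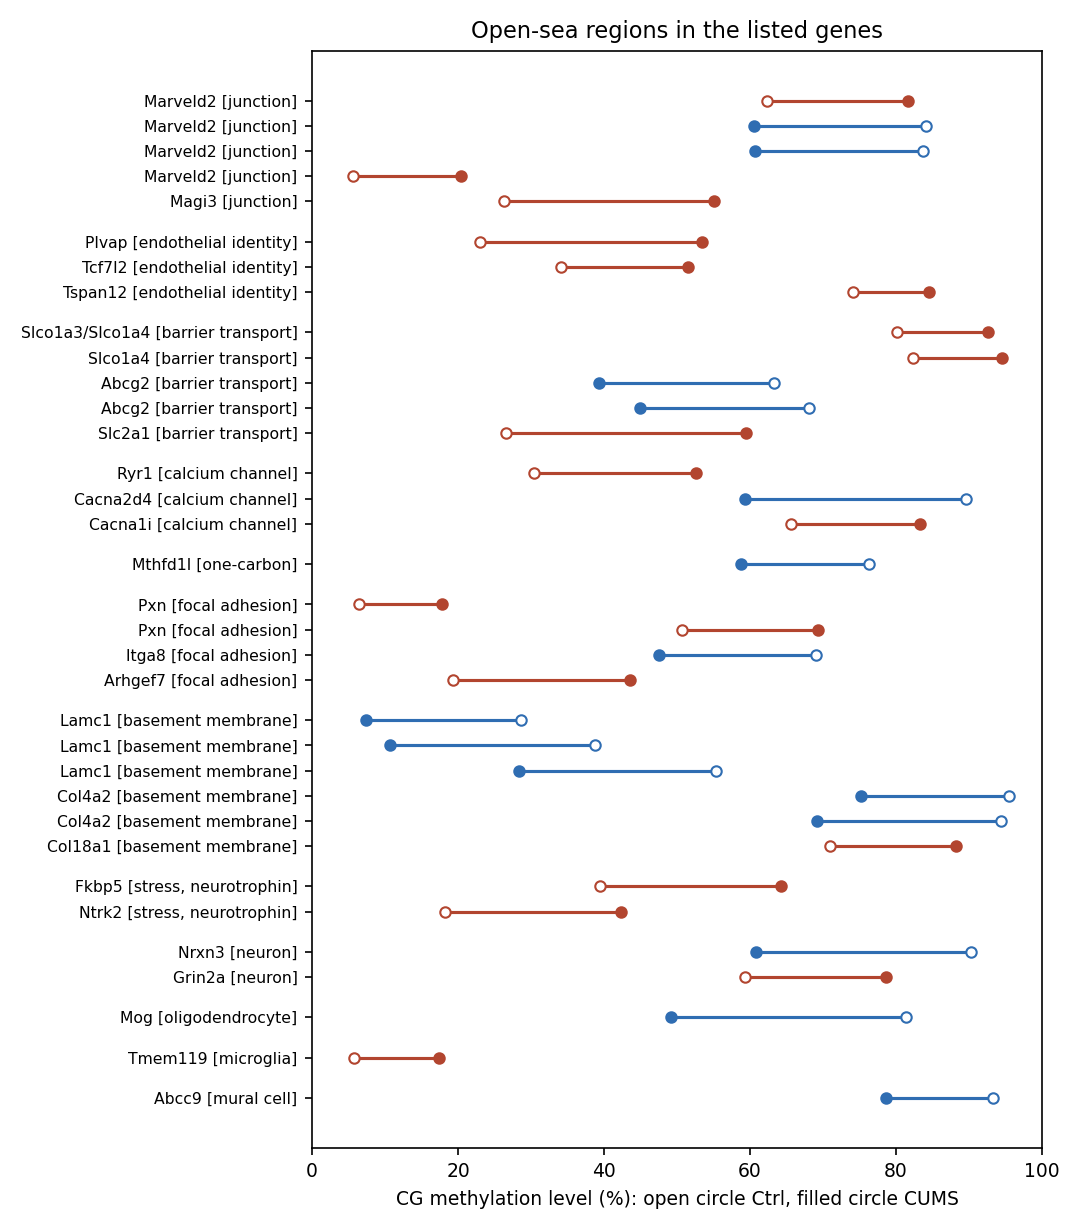
Methylation level (x axis, %) in Ctrl (open circle) and CUMS (filled circle) of members named in the text from the gene lists under the naming rule. There is 1 line per region, with its list in brackets, red where CUMS was higher and blue where it was lower. Members of the lists that the text gives outside the naming rule are not drawn. The regions of Lamc1 and Col4a2 all run to lower levels in CUMS, the endothelial identity and stress lists run to higher levels, and Marveld2 holds both directions.

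Several genes held more than 1 member, and these were used to ask whether neighbours share a direction. Of 934 genes, 114 held at least 2 members, which were all hypermethylated in 46, all hypomethylated in 21 and mixed in 47. Neighbouring members within 1 kb had the same direction in 27 of 29 pairs, those within 10 kb in 38 of 49, and those within 100 kb in 100 of 149 (67.1%). The share of pairs with the same direction was thus highest at short range. The limits are nested, so each wider count includes the closer pairs. With 62.2% of all members hypermethylated, many pairs and genes would share a direction whatever the distance. That share was not computed, so the counts by gene and at the wider limits cannot be set against it. Neighbouring regions come from the same samples and are not independent. Ranked by number of members and then by summed absolute areaStat, the first 6 genes with a symbol were all mixed, whereas Dst, with 4 members like the last 2 of them, held a single direction. Exoc4, a subunit of the exocyst, held 7 intronic members, 4 of them hypomethylated, with differences from -49.6 to 37.9 percentage points. Auts2l1 held 5 members with 3 hypomethylated, and Adgrl2, an adhesion receptor, and Etl4 each held 5 with 2 hypomethylated. Appl2, an endosomal adaptor, held 4, and its promoter and exon member went from 80.9% in Ctrl to 53.6% in CUMS, while 3 intronic members beside it were higher, for example with 49.9% and 78.2% over 35 cytosines. Marveld2 held the 4 members given above.

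The direction also varied by chromosome. Hypermethylated members outnumbered hypomethylated ones on 17 of 20 autosomes. The hypomethylated share ran from 24.1% of 29 members on chromosome 18 to 57.1% of 42 on chromosome 13, and the other chromosomes above 50% were 11 (55.6%) and 6 (51.4%). Chromosome X held 42 members, 12 of them hypomethylated (28.6%). With 27 to 97 members on each autosome, these shares have wide counting errors.

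Methylation outside the CG context gave another readout at the same places. A CHG region of the authors' reduced list of DMRs, from which the annotated list was made, overlapped 6 members (0.572%), compared with 1.93% of all CG regions, and a CHH region of that list overlapped 2 (0.191%), compared with 0.513%. Both CHH overlaps also had a CHG overlap. At Nsg2 the CHG level was 0.145% in Ctrl and 8.39% in CUMS and the CHH level was 0.140% and 6.56%, beside 2.73% and 13.5% for CG, so all contexts were higher in CUMS. Tdh, an enzyme of threonine metabolism, went the same way in its 3 contexts, with CG levels of 3.09% and 11.7%. Procr, the endothelial protein C receptor, had 29.8% and 50.1% for CG and 0.0137% and 3.21% for CHG, and Rapgef3, the cAMP sensor Epac1, had 5.47% and 27.8% for CG and 0.554% and 5.40% for CHG. In Dad1 and Mei4 the contexts went apart. The CG level of Dad1 was 29.2% in Ctrl and 10.4% in CUMS, whereas its CHG level was 0.284% and 3.74%, and in Mei4 the CG level was 89.0% and 72.4% while the CHG level was 0.0254% and 3.65%. These 6 members are named because they are all that overlapped the CHG and CHH regions of the reduced list. Every one of these CHG and CHH overlaps was higher in CUMS, from Ctrl levels of 0.0113% to 0.554%, whatever the direction in CG. Agreement at the hypermethylated members is therefore no separate readout of the CG direction. Incomplete conversion raises such levels, and its part was not tested. The authors' full list holds many more CHH regions, and 29 members (2.76%) overlapped a CHH region there, compared with 4.15% of all CG regions.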

How the data were processed

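Whole-genome methylation was measured in 3 CUMS and 3 Ctrl samples of sorted hippocampal BMECs. Per the labels and the study's methods, DNA was converted with TET2 and APOBEC3A, which does not separate 5-methylcytosine from 5-hydroxymethylcytosine and raises levels where conversion is incomplete. Per the submitters' processing notes, FastQC 0.11.3, fastp 0.20.0, Bismark 0.16.3 and Bowtie2 were used with mRatBN7.2 (rn7), and DMRs were called with DSS per the methods. The authors deposited each region's level as a fraction from 0 to 1, 1 mean value per group, given here in percent. The deposited counts are the number of cytosines per region, and the deposited areaStat score of the authors was used only for ranking. No read number or p-value was given per region, so the depth at each region is unknown and the planned test over samples could not be made. Sequencing coverage is stated in the study's methods for the samples only.

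Rows of a region were joined by position and context, and regions were classed by annotation, counted by direction and summarised by medians with Python 3.11.15, pandas 2.3.3 and scipy 1.17.1. The extent of the promoter annotation is not given in the sources used here. The script was tested on simulated data. Named were, among members with a gene symbol, the 8 per direction with the largest absolute areaStat, the 4 per direction with the largest difference and at least 5 cytosines, the 4 promoter members per direction by areaStat, the first 6 genes by number of members (at least 3) and then by summed absolute areaStat, and up to 3 genes per list. The members, lists and this rule were chosen with earlier results of these data known. A table of the mean level along gene bodies was not used. Some genes covered by the lists are counted but not reported here by name.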

Additional observations from a re-analysis of the deposited data

How the results depend on the processing

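No paired analysis was possible because each group has 1 mean level per region, and for this reason no sample could be left out in turn. Over 13 results, 129 values were recomputed, of which 93 stayed within 1.5 times the count, or within the 95% interval of the share or median over regions, 35 moved and 1 changed sides. More members were hypermethylated than hypomethylated under each of the 12 alternatives. The alternatives without ERVK members, and those for exonic and ERVK members, were chosen after seeing the data.

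Counts of members moved under 6 of the alternatives that removed regions. A count can only fall when regions are removed, and a median difference can only grow in size under a minimum difference. These moves are therefore fixed in direction by the filter and do not bear on how stable the results are. Hypermethylated and hypomethylated members numbered 349 and 195 at 20 or more percentage points, 351 and 193 with at least 10 cytosines, 257 and 130 at 100 bp or more, 399 and 182 without repeats, 179 and 46 without intron-only members, and 340 and 185 at or above the median absolute areaStat. The hypomethylated share of members was 33.6% at 100 bp or more, 31.3% without repeats, 20.4% without intron-only members and 34.8% without ERVK members. For members outside promoters it was 33.8%, 32.4% and 16.3% under the first 3 of these. For open-sea intergenic regions it was 39.4% at 20 or more points, 36.7% with at least 10 cytosines, 35.05% at 100 bp or more, 29.6% without repeats and 37.5% at or above the median areaStat. For island or shore regions it was 4.64% at 10 or more points, 6.49% at 20 or more, 2.35% at 100 bp or more, 2.08% without intron-only regions and 1.91% at or above the median areaStat. The median difference of hypermethylated members was 24.5 points at 20 or more points, 19.4 with at least 10 cytosines and 18.98 without intron-only members, and that of hypomethylated members was -26.1 at 20 or more points and -22.1 at 100 bp or more. With the full list of CHH regions, 29 members (2.76%, compared with 4.15% of all CG regions) overlapped one, 19 of them in the same direction.

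The result that changed sides was the hypomethylated share of ERVK members, which was 37.5% of 16 without intron-only members. Under the other alternatives run for them, the shares of exonic and ERVK members stayed within their intervals. With the depth at each region unknown, precision of single levels cannot be given. The alternatives by symbol and intron were not run for intergenic regions, nor those that leave a set as it is or empty.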

Other observations

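Members in further genes of endothelial function were read after their values were seen and stand outside the lists and the naming rule. Tfpi, the inhibitor of tissue factor made by endothelium, had 24.2% in Ctrl and 41.3% in CUMS over 11 cytosines spanning its promoter and 5′ UTR (chromosome 3, 69573949 to 69574084). Nostrin, which directs the trafficking of endothelial nitric oxide synthase, had 13.1% and 33.6% over 8 cytosines of its promoter and an intron (chromosome 3, 53912273 to 53912356). The Rapgef3 region described above lay in its promoter and 5′ UTR and went from 5.47% to 27.8%, and that of Procr lay across an exon and an intron. Bsg, the cell surface glycoprotein basigin that is abundant in barrier endothelium, was hypomethylated, with 16.9% in Ctrl and 5.69% in CUMS over 9 cytosines (chromosome 7, 9996089 to 9996155). No test of these values was possible.

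Some genes with several members held a single direction. Dst, a cytoskeletal linker, carried 4 hypermethylated intronic members, with Ctrl levels of 25.1% to 84.2% and CUMS levels of 45.6% to 97.2%. Mtus2, a microtubule-binding protein, carried 3, the promoter one with 7.73% in Ctrl and 45.4% in CUMS over 22 cytosines. Sesn2, a stress-induced inhibitor of mTORC1 signalling, carried 3 hypomethylated members, with 93.8% and 72.4% in an ERVK element, 84.3% and 69.4% in another repeat, and 75.1% and 54.8% in an exon without a repeat. These genes were picked for their shared direction.

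A promoter member without other gene features was annotated to Mir92b and Muc1 together. Its level was 47.5% in Ctrl and 21.9% in CUMS over 7 cytosines in an ERVK element (chromosome 2, 174634822 to 174634884, mRatBN7.2). The mature sequences of the microRNA are given from RefSeq (GRCr8), with the seed, bases 2 to 8, in capitals.
rno-miR-92b-3p: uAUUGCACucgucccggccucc
rno-miR-92b-5p: aGGGACGGgacgcggugcaguguu
The level of the microRNA was not measured.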
